A study of Mus musculus with 18 samples.

Results

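The protein genes of the cytosolic ribosome were followed across cortex and hippocampus of mice raised under 2 kinds of chronic hypoxia. Members were chosen by name: a probe belongs to the set when the number in its zero-padded identifier, read as a mouse NCBI gene ID, gives a symbol of the Rpl or Rps series, Rpsa or a stalk gene (Rplp0, Rplp1 or Rplp2), without ribosomal S6 kinases and pseudogenes named as such. Of the 46120 probes on the array, 83 met the rule, for 74 genes. Of these, 69 probes for 66 genes had a measurable signal, among 14664 measured probes in all.

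The arrays came from CD-1 mice aged 16 days and formed 6 groups of 3: untreated controls and animals under chronic consistent hypoxia (CCH) or its intermittent form, chronic intermittent hypoxia (CIH), each sampled in cortex and in hippocampus. Both exposures lasted 2 weeks and began at postnatal day 2. The strain carries no engineered allele in the labels, and neither the oxygen levels nor the cycle of CIH is stated in the sources at hand. The labels do not say that the replicates were separate animals, so p-values measure the spread between these samples, which may be technical in part.

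The cytosolic ribosome builds every protein encoded in the nucleus. Its small subunit (40S, proteins named Rps) reads the messenger RNA, and its large subunit (60S, proteins named Rpl) joins the amino acids. The messenger RNAs of the ribosomal proteins share a pyrimidine-rich 5′ end, the TOP motif, through which the kinase mTOR tunes their translation. In low oxygen, cells are known to restrain mTOR and ribosome production. Such control acts largely on translation, which an array of RNA levels does not measure. In a whole tissue, fewer cells of a type and less RNA per cell cannot be told apart.

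The annotated start sites were examined for a TOP-like start, defined as a C within 5 bases of the start followed by at least 4 bases that are each C or T, on the gene's strand. Of the 74 member genes, 56 had an entry in the RefSeq promoter table (GRCm38.p6), and 27 of them (48.2%) held such a start. Over all 27025 genes in that table the share was 21.2%. In the windows below, capitals mark the match from its C nearest the start. All other bases, pyrimidines before that C included, are in lower case. The windows run from 40 bases before the start to 20 bases after it. They are shown for genes followed by array further on: Rpl35 (chr2:39005112-39005171, minus strand), Rpl27a (chr7:109519155-109519214, plus strand) and Rps9 (chr7:3704001-3704060, plus strand) carry a tract, while Rplp0 (chr5:115559427-115559486, plus strand), Rps3 (chr7:99483690-99483749, minus strand) and Rpl10a (chr17:28328525-28328584, plus strand) had no match in this window.
Rpl35: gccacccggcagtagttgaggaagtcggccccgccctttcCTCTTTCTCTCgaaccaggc
Rpl27a: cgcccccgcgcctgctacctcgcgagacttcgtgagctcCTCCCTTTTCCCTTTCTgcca
Rps9: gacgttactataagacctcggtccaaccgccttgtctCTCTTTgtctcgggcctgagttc
Rplp0: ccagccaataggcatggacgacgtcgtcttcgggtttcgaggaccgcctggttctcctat
Rps3: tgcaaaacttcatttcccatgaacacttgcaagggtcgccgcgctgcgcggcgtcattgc
Rpl10a: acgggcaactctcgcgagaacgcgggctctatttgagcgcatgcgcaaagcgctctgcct
A match describes letters near an annotated start and was not tied to any measured change.

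Marker genes separated the tissues. Of the hippocampal markers, Prox1, a transcription factor of dentate granule neurons, was higher in control hippocampus than in control cortex by 1.82 log2 units, and Zbtb20 by 1.17. Mef2c fell by 1.94 and Cux2 by 0.99, as did Cux1 and Rorb, while Bcl11b, also listed for cortex, was higher in hippocampus by 0.48. Every sample was labelled male, yet Xist, a noncoding RNA of female cells that acts on the inactive X chromosome, was high on 5 arrays, at 9.35 to 10.17 log2 units, and low on the other 13, at 6.53 to 6.56. The 5 were CIH cortex 2, CIH hippocampus 2, CCH hippocampus 3 and arrays 2 and 3 of CCH cortex. No control array was among the 5, and the member counts and medians that moved most in a fit without them are given beside the full ones. Replicate arrays correlated at 0.982 to 0.995 over 18 pairs, the median raw intensity of an array was 70.8 to 96.4, and 12251 to 14530 probes passed detection on each. The replicate number of an array is also its slide, and each slide held 1 array of every group.

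No ribosomal protein gene passed the test in any comparison of hypoxia with control. The threshold for a call was an adjusted p under 0.05 in limma's moderated test, adjusted over all measured probes. In cortex, 0 of 69 member probes were called in CCH, where 0.846% of all probes were, and 0 in CIH, against 0.15%. In hippocampus, 0 were called in CCH, against 0.518%, and 0 in CIH, against 0.0614%. At background shares this low, a count of 0 among 69 is close to what the background gives. Without adjustment, 10, 3, 4 and 4 member probes had p under 0.05 in the same order, or 14.5%, 4.35%, 5.80% and 5.80% of members, beside 10.8%, 6.37%, 8.39% and 6.39% of all probes. With the slide as a block the counts called were 0 as well.

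The precision of these comparisons bounds what could have been seen. The median standard error of a member's change was 0.10 log2 units. The 95% interval of the change lay wholly within a 1.5-fold difference for 55 of 69 probes in CCH cortex, 58 in CIH cortex, 56 in CCH hippocampus and 55 in CIH hippocampus. The intervals of the other members reached past that bound. Some, such as those of Rpl21, Rpl6 and Rps3a1, were wide, and others lay around a higher estimate, as for Rpl10a.

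**Figure D1:**
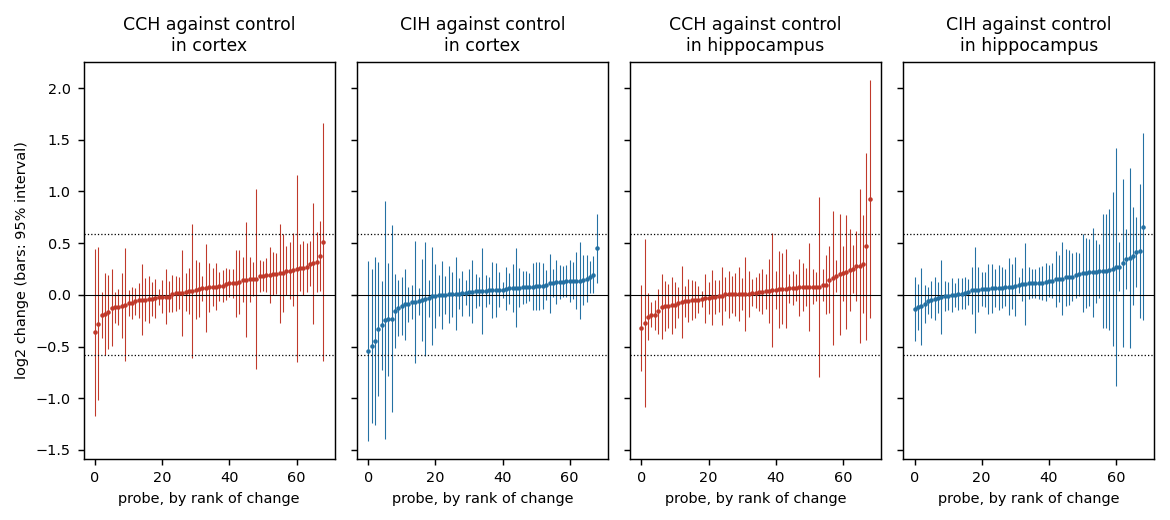
Log2 change from control of the 69 measured ribosomal protein probes in each exposure and tissue, ranked within each panel, with 95% intervals as bars and dotted lines at a 1.5-fold difference. Most points lie near 0, 55 to 58 intervals per panel stay between the dotted lines, and no probe was called in any panel.

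The median change of the members was 0.07 log2 units in CCH cortex, 0.04 in CIH cortex, 0.02 in CCH hippocampus and 0.11 in CIH hippocampus, while the median over all probes was within 0.01 of 0 in each. Members above 0 numbered 46, 46, 44 and 56 of 69, beside 49.5%, 53.4%, 48.1% and 49.5% of all probes. The sign depended on the scaling in CCH: with arrays scaled by their medians in place of quantile normalization the member median was −0.00 in CCH cortex and −0.03 in CCH hippocampus, where the median of all probes was −0.02 and −0.06. Leaving out a single array also turned it: in CIH cortex to −0.00 with 34 of 69 above 0 without control cortex 2, and in CCH hippocampus to −0.04 with 26 above 0 without CCH hippocampus 1 and to −0.02 with 27 above 0 without control hippocampus 3. In CCH cortex it was 0.02 without CCH cortex 1 and 0.03 without control cortex 2. In CIH hippocampus it was above 0 in all 19 alternatives, from 0.07 without CIH hippocampus 1 to 0.15 without control hippocampus 1, and 0.09, 0.11 and 0.12 within slides 1, 2 and 3. Within slides it was 0.10, 0.05 and 0.06 in CCH cortex, 0.03, 0.07 and −0.04 in CIH cortex, and 0.01, 0.05 and −0.00 in CCH hippocampus.

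By subunit, in CIH hippocampus 30 of 38 probes of the 60S subunit were above 0 with a median of 0.10, and 26 of 31 probes of the 40S subunit with a median of 0.11. In CCH cortex the medians were 0.11 for the 60S and 0.05 for the 40S subunit, so the 60S median was highest in CCH cortex and the 40S median in CIH hippocampus. In CIH cortex both were 0.04, and in CCH hippocampus both were 0.02. The difference between subunits was not tested.

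Marker lists of other cell types also differed from control in RNA level in some groups. In CIH hippocampus all 12 measured probes of the immature neuron list lay above control with a median of 0.15, none of them called, and the mean level of the list was 8.44 to 8.55 per array against 8.27 to 8.35 in control hippocampus. In CCH cortex Hba-a1 (1.26) and Hbb-b1 (1.12), which encode hemoglobin chains, rose, and all 9 measured probes of the myelin list lay below control, with Opalin (−0.70), Tspan2 (−0.53) and Evi2a (−0.32) called. In CCH hippocampus the myelin list was again below control at 9 of 9 probes, 5 of them called, and Hba-a1 rose by 1.26. The 3 measured endothelial probes lay above control in CCH cortex (median 0.39, Pecam1 called) and CCH hippocampus (median 0.45, 0 called). Under CIH their medians were 0.07 in cortex and 0.02 in hippocampus. The 2 choroid plexus probes had medians of −0.71 in CCH cortex, 0.02 in CIH cortex, −0.41 in CCH hippocampus and −0.69 in CIH hippocampus, with 0 called. Their mean level per array was 8.40 to 8.51 in control cortex and 7.35 to 8.03 in CCH cortex. In hippocampus it spanned 7.20 to 9.40 in control, 6.73 to 9.69 in CCH and 7.13 to 9.30 in CIH, so the groups overlapped widely. The myelin list lay below control at 9 of 9 probes under CIH as well, with a median of −0.35 in cortex and −0.45 in hippocampus and 0 called. Its mean level in hippocampus was 8.59 to 9.01 per array under CIH against 9.01 to 9.42 in control. The 3 measured erythroid probes lay above control in both CIH groups, with medians of 0.13 in cortex and 0.55 in hippocampus, 0 of them called. Their part in the ribosomal protein values was not tested.

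Rpl10a, a 60S protein (chr17:28328471-28331033), was among the 5 highest members in each of the 4 comparisons with control. Its log2 signal was 10.38, 10.38 and 10.53 on the arrays of control cortex, 10.91, 10.46 and 11.04 in CCH cortex, and 10.94, 10.63 and 11.06 in CIH cortex. All 3 CIH arrays lay above all 3 control arrays in cortex, and CCH overlapped control. In hippocampus it was 10.87, 10.52 and 10.30 in control, 10.99, 10.80 and 10.75 in CCH, and 10.96, 10.99 and 10.99 in CIH. The change was 0.38 ± 0.16 (SE) in CCH cortex, 0.45 ± 0.16 in CIH cortex, 0.28 ± 0.16 in CCH hippocampus and 0.42 ± 0.16 in CIH hippocampus. It was positive on each of the 3 slides in each of these, with adjusted p of 0.39, 0.56, 0.74 and 0.62. The CCH and CIH comparisons of a tissue share their control arrays and are not independent.

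In CCH cortex all 10 member probes with unadjusted p under 0.05 were higher than control. They included Rpl10a, Rpl37a, Rpl35, Rps16, Rpl13a, Rps26, Rpl15 and the steadier probe of Rps9. The smallest adjusted p among members was that of Rpl35, a 60S protein near the exit of the peptide tunnel (chr2:39001581-39005131). Its log2 signal was 11.98, 11.79 and 12 in control cortex and 12.52, 12.04 and 12.11 in CCH cortex. The groups did not overlap, and CCH cortex 1 was the highest of the 6 arrays. The change was 0.30 ± 0.10 (SE), with an adjusted p of 0.24. Without CCH cortex 1 it was 0.16.

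Of the 69 member probes, 12 had CCH and control arrays in cortex that did not overlap, 11 of them with CCH above, where 15.1% of all probes did not overlap and 7.71% had CCH above. The remaining probe, that of Rps14, lay below. The largest other changes in CCH cortex were 0.51 for Rpl21, 0.32 for Rpl37a and 0.31 for Rpl36. The most negative were −0.36 for Rps3a1, −0.28 for the more variable probe of Rps9, −0.19 for Rpl36a, −0.18 for Rpl32 and −0.17 for Rps6, all with intervals that include 0.

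Restricting the fit to the 13 arrays with low Xist leaves CCH cortex with array 1 alone, whose spread is then taken from the other groups. Under that fit 4 members were called in CCH cortex, namely Rpl35 (0.60), Rpl38 (0.49), Rpl37 (0.42) and Rps26 (0.41), and the member median was 0.17. That is 5.80% of members, beside 5.06% of all probes in the same fit. Without CCH cortex 1 the count was 0 and the member median 0.02. With low-Xist arrays alone the other comparisons with control kept a count of 0, beside 0.0205%, 0.28% and 0.0205% of all probes, with medians of 0.05 in CIH cortex, 0.07 in CCH hippocampus and 0.12 in CIH hippocampus.

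In CIH cortex, apart from Rpl10a, the highest values were 0.19 for Rps7, 0.17 for the probe of Rpl27a with the weaker signal, 0.16 for Rpl13a and 0.14 for Rpl23a. The lowest were −0.54 for Rpl6, −0.49 for the more variable probe of Rps9, −0.44 for Rps3a1, −0.33 for the more variable probe of Rps3 and −0.30 for Rpl35a. CIH cortex 2 held the lowest of the 18 values for Rpl6, Rps3a1, Rpl35a and these probes of Rps9 and Rps3, and without it the change of Rpl6 was 0.01. Rpl35a was at 10.80, 10.19 and 10.66 in CIH cortex and 11.04, 10.57 and 10.92 in control cortex. In CIH cortex 10 of 69 probes did not overlap with control, all 10 higher, beside 12.5% of all probes, of which 7.86% were higher.

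In CCH hippocampus the high values included 0.93 for Rpl21, 0.30 for Rpl12 and 0.28 for the more variable probe of Rps9, with intervals that include 0. Without control hippocampus 3 the change of Rpl12 was −0.00. Rpl3 had the smallest adjusted p of the members, 0.23, at −0.19 ± 0.06 (SE). Rps15 (−0.32), Rps3a1 (−0.27) and Rpl24 (−0.21) were also among the low members. Arrays did not overlap with control for 3 probes of 69, Rpl3 and Rpl24 among them, all 3 lower, beside 12.2% of all probes, and 0 members lay wholly above control, beside 5.31%.

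In CIH hippocampus the high values included 0.42 for the more variable probe of Rps3, 0.38 for Rpl12 and 0.36 for Rpl6. Control hippocampus 3 was the lowest of the 6 arrays for all 3, at 9.65, 9.44 and 9.10. For Rpl12 the other control arrays were at 10.55 and 10.14, and the CIH arrays at 10.68, 10.31 and 10.27. The lowest were −0.14 for Rps27l, −0.12 for Rpl36a, −0.11 for Rps15a, −0.09 for Rps2 and −0.06 for Rplp0. Without CIH hippocampus 2 the change of Rps27l was 0.01, and without control hippocampus 3 that of Rpl36a was 0.02. Here 8 of 69 probes did not overlap with control, all 8 higher, beside 9.48% of all probes, of which 4.21% were higher. Among these were Rpl10a, Rps16 (0.27) and Rpl7 (0.20). Rps24 is also among the 8, and it passed the detection filter only with the arrays of CIH hippocampus.

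**Figure D2:**
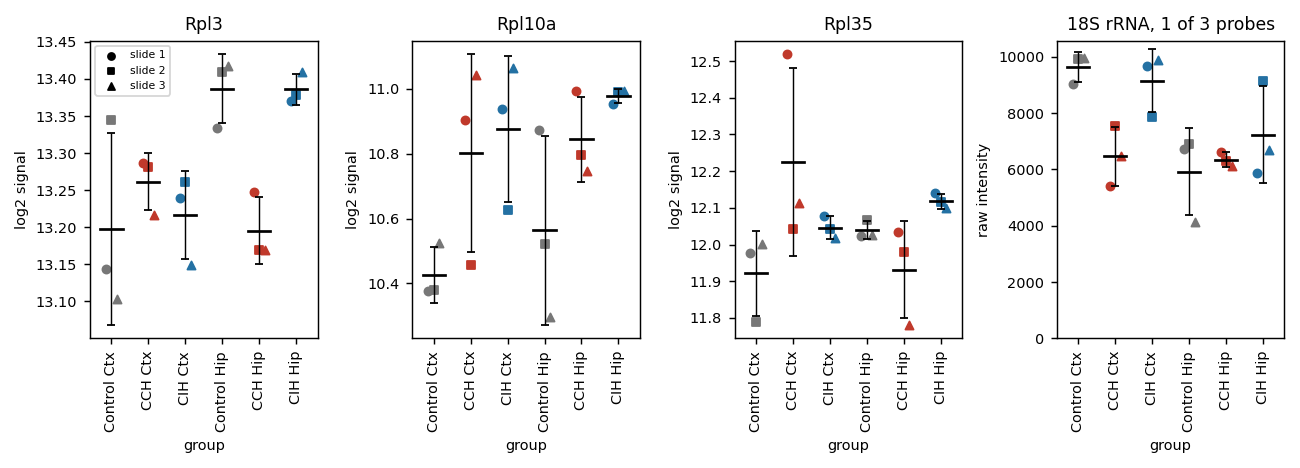
Log2 signal of Rpl3, Rpl10a and Rpl35 and raw intensity of an 18S ribosomal RNA probe on each of the 18 arrays, by group, with marker shape for the slide, a bar for the group mean and whiskers for 1 SD (n = 3). Rpl10a is lowest on average in control cortex, Rpl35 has a single high array in CCH cortex, and the 18S probe is higher in control and CIH cortex than in CCH cortex.

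Rpl3, the 60S protein that lies at the peptidyl transferase centre (chr15:80077781-80083406), was the only member called in any comparison, and only between the control tissues. Its log2 signal was 13.14, 13.34 and 13.10 in control cortex and 13.33, 13.41 and 13.42 in control hippocampus. The highest cortex array lay within the range of hippocampus, so the groups overlapped. The rise in hippocampus was 0.19 ± 0.06 (SE), with an adjusted p of 0.041, and 0.036 with the slide as a block. It was 0.19, 0.07 and 0.31 within slides 1, 2 and 3.

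In that comparison 11.7% of all probes were called, and 5.52% were called higher in hippocampus, so 1 member of 69 is a smaller share than the background. The call was lost in 11 of 19 alternatives, including when any of control cortex 1 or 3 or control hippocampus 2 or 3 was left out, while the change stayed at 0.14 to 0.26. Without adjustment 4 members had p under 0.05, beside 22.7% of all probes, and 6 did not overlap, all 6 higher in hippocampus, beside 26.8% and 13.9%. Member probes above 0 numbered 34 of 69, beside 53.2% of all probes, with a median of −0.00, where the median of all probes was 0.01. Other members of the largest size were Rps15a (0.44), Rps27l (0.19), the probe of Rpl27a with the weaker signal (0.17) and the stalk protein gene Rplp0 (0.16) on the higher side. On the lower side were Rpl17 (−0.27), Rpl12 (−0.23), Rpl36 (−0.21) and the more variable probe of Rps3 (−0.20). Without control hippocampus 3 the value of Rpl12 was 0.07. That array was also the lowest of the 6 control arrays for Rpl36 and for this probe of Rps3, at 8.09 and 9.65. For Rpl36 the other control hippocampus arrays were at 9.12 and 8.52, against 8.49 to 8.99 in control cortex. For the probe of Rps3 they were at 10.70 and 9.86, above and below all arrays of control cortex. The lower values of both therefore lean on control hippocampus 3 as well.

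The exposures were also set against each other. In cortex, 0 members were called between CIH and CCH, where 0.471% of all probes were, and the member median was −0.05 with 25 of 69 above 0, beside 50.9% of all probes. Without CCH cortex 1 the median was −0.00 with 33 above 0, and without CCH cortex 2 it was −0.11 with 20 above 0. With the low-Xist arrays alone, where CCH cortex is array 1 only, it was −0.12, and Rpl35 was called at −0.47, or 1.45% of members beside 2.52% of all probes. In the fit of all arrays 3 members had unadjusted p under 0.05, beside 9.81%, and 10 did not overlap, beside 13.9%, with 9 of them higher in CIH, beside 7.95%. The highest values were 0.28 for Rpl36a, 0.26 for Rps15a, 0.25 for Rpl19 (adjusted p of 0.27), 0.18 for Rpl41 and 0.13 for Rpl32. The low values included −0.75 for Rpl21, −0.70 for Rpl6, −0.37 for Rpl36 and −0.37 for the more variable probe of Rps3. Without CIH cortex 2 these were −0.32, −0.15, −0.18 and −0.09. In hippocampus 0 members were called, against 0.286%, and the member median was 0.10 with 54 of 69 above 0, beside 51.5% of all probes, and 0.06 with the low-Xist arrays alone. It ran from 0.04 without CCH hippocampus 3 to 0.16 without CCH hippocampus 1. Without adjustment 5 members had p under 0.05, beside 6.61%, and 8 did not overlap, beside 13.6%, all 8 higher in CIH, beside 6.43%. Both counts include Rps24, which passed the detection filter only with the arrays of CIH hippocampus. Rpl3 was at 0.19 ± 0.06 (SE) there, with an adjusted p of 0.33, and all 3 CIH arrays lay above all 3 CCH arrays.

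The highest values in that comparison were 0.58 for Rps3a1, 0.37 for Rps15, 0.28 for Rpl6, 0.26 for the more variable probe of Rps3 and 0.26 for Rpl24. The lowest were −0.66 for Rpl21, −0.16 for Rps15a, −0.13 for Rpl32, −0.13 for Rps2 and −0.13 for Rplp0.

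Whether an exposure acted unequally in the tissues was tested as an interaction, hippocampus minus cortex. Of all probes 0% were called for CCH and 0% for CIH, members included, so the test separates no gene here. At unadjusted p under 0.05 the counts were 4 of 69 members for CCH, beside 4.58% of all probes, and 0 for CIH, beside 2.61%. Members above 0 numbered 27 for CCH, beside 48.7%, and 47 for CIH, beside 47%. The member median was −0.05 for CCH, 0.01 without control cortex 2 and −0.12 with the low-Xist arrays alone, and it was 0.07 for CIH. The 4 members with unadjusted p under 0.05 for CCH all had negative values and included Rpl35 (−0.41 ± 0.14 SE), Rpl3 (−0.26 ± 0.08) and Rpl23a (−0.34 ± 0.16). Without CCH cortex 1 the value of Rpl35 was −0.26. With the low-Xist arrays alone, where CCH cortex is array 1 only, Rpl35 was called at −0.63, or 1.45% of members beside 0.839% of all probes. Other values for CCH included −0.34 for Rps15, −0.31 for Rpl26 and 0.56 for the more variable probe of Rps9, with Rpl21 and Rpl32 at 0.42, Rps12 at 0.32 and Rpl17 at 0.22. For CIH they ran from −0.25 for Rps15a, −0.20 for Rpl36a, −0.18 for Rpl19, −0.17 for Rpl41 and −0.16 for Rps2 to 0.90 for Rpl6, with Rps3a1, and the more variable probes of Rps3 and Rps9, at 0.74 to 0.75. Without CIH cortex 2 the value of Rpl6 was 0.35, that of Rps3a1 0.31, and those of the probes of Rps3 and Rps9 0.48 and 0.36.

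By role, the stalk of the 60S subunit, which recruits elongation factors, was represented by Rplp0 alone, since the probe of Rplp2 was below the detection filter and Rplp1 had no named probe. Rplp0 had changes of −0.06, 0.05, 0.07 and −0.06 in CCH and CIH cortex and in CCH and CIH hippocampus, in that order. The probe of Rpsa, which encodes a 40S protein also known as the laminin receptor, was detected on 0 of 18 arrays. Rps6, the 40S protein phosphorylated downstream of mTOR, was detected on 16 arrays and had changes of −0.17, −0.16, 0.01 and −0.02 in the same order. Rpl13a, known in mammals for silencing inflammatory messenger RNAs when released from the ribosome, had 0.26 ± 0.10 (SE) in CCH cortex, with an adjusted p of 0.36, and 0.16, 0.01 and 0.19 in the others.

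Genes on the X chromosome were represented by all 4 listed members, Rpl10, Rps4x, Rpl36a and Rpl39. Their changes against control ran from −0.19 for Rpl36a in CCH cortex to 0.22 for Rpl10 and Rpl39 in CIH hippocampus, and 0 of 4 were called in any comparison. Of 7 genes whose human counterparts are mutated in Diamond-Blackfan anemia, a failure of red cell production, 5 were measured. Rps26 was at 0.21 in CCH cortex, Rpl35a at −0.30 in CIH cortex, and Rpl11 within 0.08 of 0 against control in both tissues. CIH cortex 2 held the lowest of the 18 values of Rpl35a. None of the 5 was called. The probe of Rps19 was detected on 0 of 18 arrays, and Rpl5 had no named probe.

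Rps24 was detected on 5 of 18 arrays, and on none of CCH cortex, control hippocampus or CCH hippocampus, so no fold is given for it. All 3 CIH hippocampus arrays detected it, and without them it would not have passed the detection filter. The member counts given for CIH hippocampus include it. Of the 65 member probes detected on all 18 arrays, 54 were above 0 in CIH hippocampus against control. Paralogs are copies that replace or resemble a ribosomal protein. Of 8 listed, 4 were measured: Rpl22l1, Rpl7l1, Rps27l and Rps4l, which the annotation lists as a transcribed pseudogene. Their changes against control ran from −0.14 for Rps27l in CIH hippocampus, 0.01 without CIH hippocampus 2, to 0.13 for Rpl7l1. Their parents Rps27 and Rpl7 ran from 0.06 to 0.21 and from 0.01 to 0.20, and none was called. Probes of near-identical copies and of processed pseudogenes may share signal, which was not tested.

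Across the 18 arrays the members varied unequally. The standard deviation of log2 signal had a median of 0.14 over members and 0.13 over all probes. Over probes at least as bright as the 5th percentile of members, a cut that the dimmest members do not reach, it was 0.17. It was above 0.3 for 10 of 69 members (14.5%), beside 10.3% of all probes and 15.3% of those past that cut. They included Rpl21, Rpl6, Rps3a1, a probe of Rps9, a probe of Rps3, Rpl36, Rps12, Rps15a and Rps23. The limit was chosen after the values were seen, and the nearest values on either side of it were 0.301 and 0.284. CIH cortex 2 was the lowest array for 6 of the 10.

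Rpl21 varied most, from 7.24 on CIH cortex 2 to 9.95 on CCH hippocampus 1, a 6.56-fold range. In control cortex it was 8.81, 7.69 and 8.51, so the spread was present without hypoxia. CCH cortex had 9.87, 7.71 and 8.97, which spans the control range on both sides. Rpl6 ran from 7.98 to 10.12. Without the 10 variable probes the member medians against control were 0.07, 0.05, 0.01 and 0.08 in CCH and CIH cortex and in CCH and CIH hippocampus, in that order.

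**Figure D3:**
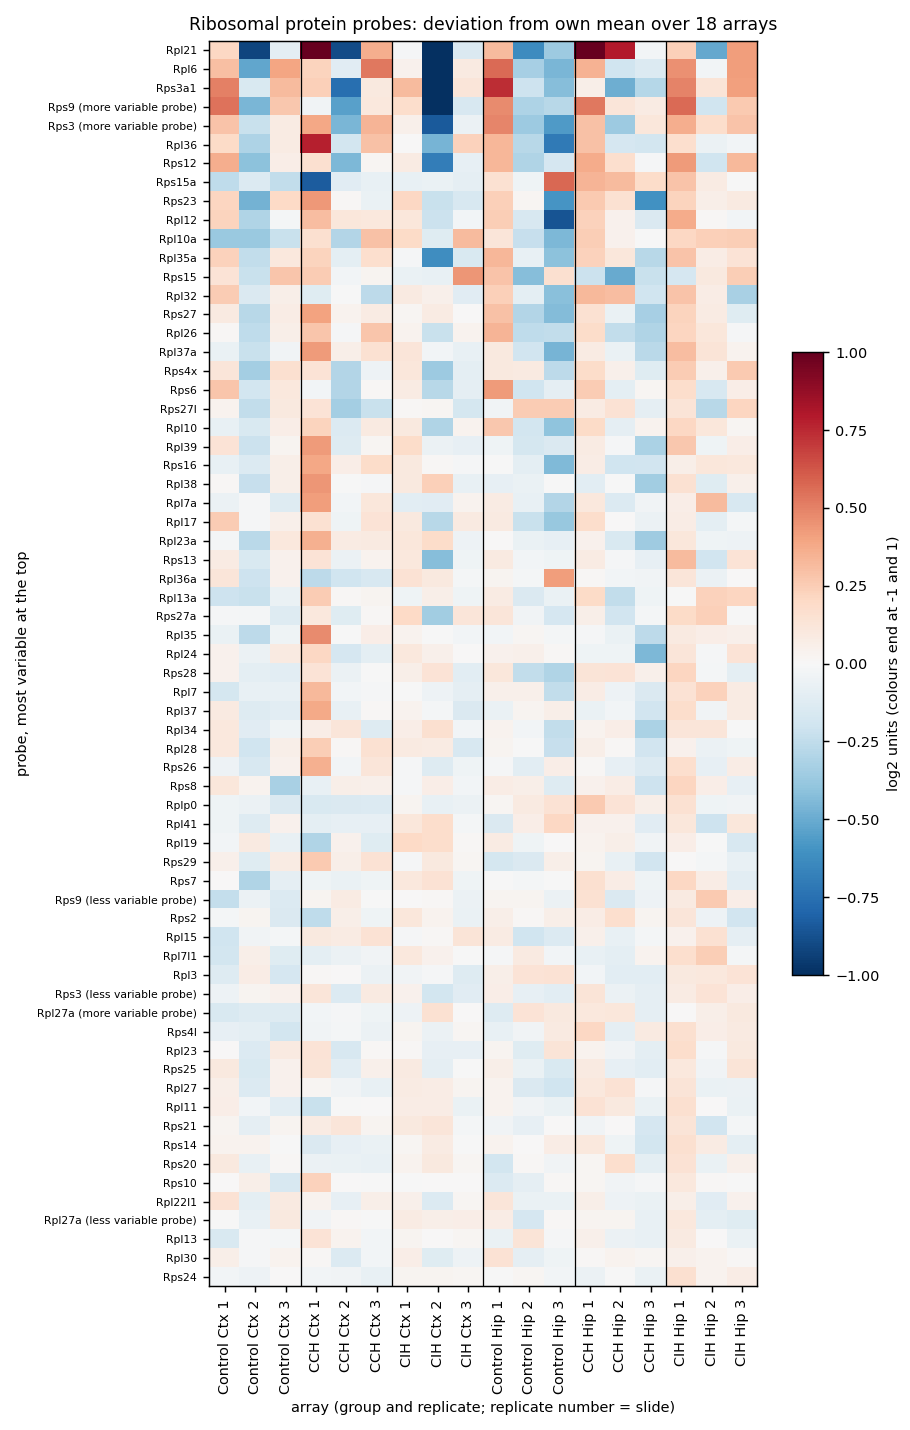
Deviation of 66 of the 69 measured probes from their own means over 18 arrays, in log2 units, with probes ordered by their spread and arrays by group. Strong colours are held by the top rows, where CIH cortex 2 is lowest for 6 probes with a standard deviation above 0.3, and most rows below are pale.

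Where a gene had more than 1 measured probe, the probes could be compared. For Rps9, which encodes a 40S protein, one probe ranged over 1.71 log2 units and the other over 0.50. For Rps3, a 40S protein at the entry of the messenger RNA channel, the ranges were 1.32 and 0.32. For Rpl27a they were 0.30 and 0.27. On CIH cortex 2 the variable probe of Rps9 was at 9.32, its lowest value, while the steadier probe was at 12.06, near its middle. In CCH cortex the Rps9 probes gave −0.28 and 0.18, opposite in sign. Both probes of Rps3 had their lowest value on CIH cortex 2, at 9.38 and 11.55.

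**Figure D4:**
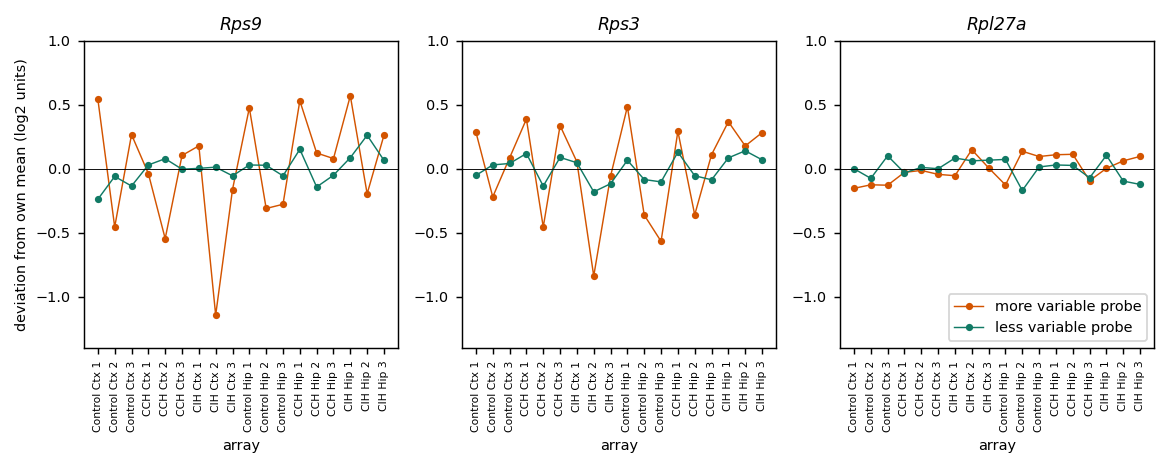
Deviation from the probe's own mean, in log2 units, on the 18 arrays for the 3 genes with more than 1 measured probe. The more variable probes of Rps9 and Rps3 drop together on CIH cortex 2 while their partners move far less, and the probes of Rpl27a stay within a range of 0.30.

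Members also shared a pattern by slide. On slide 1, 64 of 69 members lay above the other slides with a median of 0.12, beside 42.6% of all probes and a median of −0.01. At unadjusted p under 0.05 there were 37 members (53.6%), beside 18.4% of all probes, and 0 members were called, beside 0.0887% of all probes. This split was chosen after the values were seen. Rpl39 (0.26), Rpl37a (0.24) and Rps6 (0.30) had the smallest p, with adjusted p of 0.086, 0.090 and 0.093. The member median deviated by 0.03 to 0.16 on the 6 arrays of slide 1, by −0.14 to 0.03 on slide 2 and by −0.09 to 0.05 on slide 3. Median raw intensity was 90 to 96.4, 80.2 to 87.9 and 70.8 to 80.7 on the slides in that order, and its part in the pattern was not tested. Each slide held every group, so the slide is balanced over the comparisons.

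**Figure D5:**
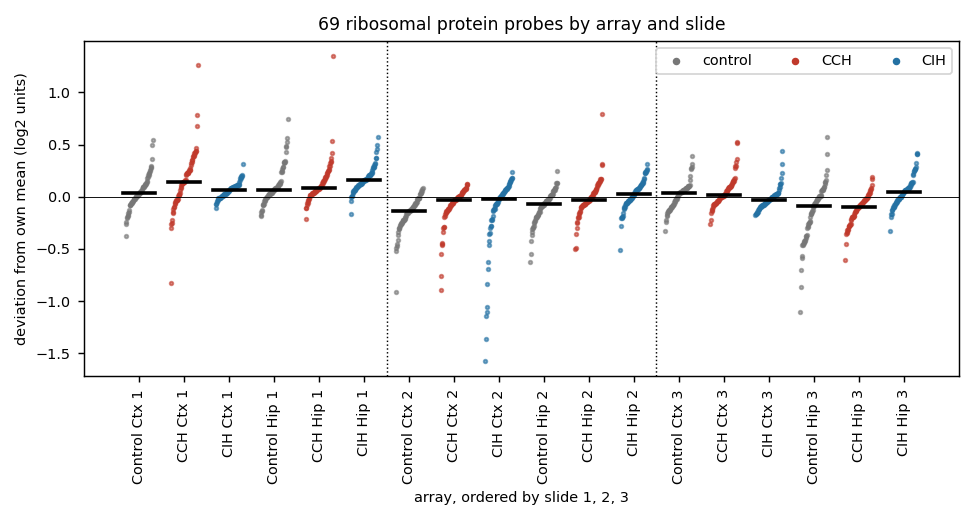
Deviation of the 69 measured probes from their own means, in log2 units, on each array, ordered by slide, with colours for the exposure and a black bar for the median of an array. All 6 arrays of slide 1 have medians above 0, from 0.03 to 0.16, and control cortex 2 has the lowest at −0.14.

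Ribosomal RNA was read from 3 probes for 18S RNA, the RNA of the 40S subunit, as raw intensity without normalization. In control cortex a probe gave 9020, 9907 and 9957, and in CCH cortex 5428, 7530 and 6461. The CCH arrays lay wholly below control for all 3 probes, at 0.58, 0.59 and 0.67 times the control level. CIH cortex was at 0.93, 0.94 and 0.95 times control and overlapped it. In hippocampus CCH was at 1.10, 1.06 and 1.10 times and CIH at 1.31, 1.38 and 1.23 times control, with overlap. Control hippocampus was at 0.61, 0.58 and 0.60 times control cortex, without overlap. CIH cortex was at 1.59, 1.59 and 1.42 times CCH cortex, also without overlap.

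For the CCH difference in cortex and for the tissue difference the exact two-sided permutation p was 0.1 for each probe, the smallest that 3 arrays against 3 allow. None of the 21 such tests could therefore pass the threshold of 0.05 before or after adjustment. Beside these, the member median changed by 0.07 in CCH cortex, −0.05 between CIH and CCH in cortex and −0.00 between control tissues. The amount of 18S RNA carried through labelling was not measured, and its part in the intensities was not tested.

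Genes that act with the ribosomal proteins gave counts of the same kind. Of 20 TOP-bearing partners such as elongation factors, 13 were measured by 17 probes, and 0 were called against control. Their medians were 0.01, −0.01, −0.02 and 0.12 in CCH and CIH cortex and in CCH and CIH hippocampus, in that order. Eef1d, a subunit of the elongation factor exchange complex, was higher in control hippocampus than in cortex by 0.33 ± 0.08 (SE; adjusted p of 0.017). It was 1 of 17 probes called between the control tissues, where 11.7% of all probes were called and 5.52% called higher. Of 42 ribosome assembly genes 18 were measured and 0 called against control, with medians of 0.02, 0.02, −0.00 and −0.01. Of 22 genes of mTOR and growth signalling 7 were measured and 0 called, with medians of 0.03, −0.02, 0.01 and 0.02.

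Mitochondrial ribosomal proteins, which belong to a separate ribosome that makes respiratory chain subunits, were measured for 33 genes by 35 probes. Of these 0 were called against control, and their medians were −0.00, 0.07, 0.03 and 0.03 in the same order. Mrps11 was higher in control hippocampus than in cortex by 0.23 ± 0.06 (SE; adjusted p of 0.022). It was 1 of 35 probes called there, beside 11.7% of all probes called and 5.52% called higher. In CIH hippocampus 21 of the 35 mitochondrial probes lay above 0, beside 56 of 69 cytosolic ones, and in CIH cortex 28 of 35, beside 46 of 69. The difference between the lists was not tested.

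Of the 83 probes that met the rule, 14 were below the detection filter. They were single probes of Rpsa, Rpl18, Rps18, Rps19, Rplp2, Rpl4, Rpl29 and Rpl36al, and second probes of Rpl21, Rpl17, Rpl23, Rpl7l1, Rpl37 and Rpl38, whose other probes were measured. Of the 69 measured, 65 were detected on all 18 arrays, and the others were Rps6 (16), Rpl30 (13), Rpl22l1 (10) and Rps24 (5). Of 95 symbols that meet the rule in the annotation, 21 had no named probe, among them Rpl5, Rpl8, Rpl9, Rpl14, Rpl22, Rpl31 and Rplp1, and also the paralogs Rpl3l, Rpl10l and Rpl39l.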

How the data were processed

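For each sample, 100 ng of total RNA was biotin-labelled during amplification and measured on an Illumina bead array. The deposited export holds 1 intensity and 1 detection score, a fraction from 0 to 1, per probe and array, and per the file headers the intensity was not normalized. The submitters' processing notes name BeadStudio 2.0 and the export's header 1.5.1.3. The deposited series values, also intensity, served as an alternative, and 108 further columns were not used.

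Background was estimated from the detection scores, and signals were offset by 16, quantile normalized and taken to log2 (limma 3.58.1, R 4.3.3). A probe was kept if its score passed 0.99 on 3 or more of the 18 arrays, which left 14664. Group means were fitted with lmFit and eBayes over all arrays, with Benjamini-Hochberg adjustment over all probes and two-sided tests. The 3 arrays per group limit the precision. The script was tested on simulated data. No key joining probes to genes is given in the sources used here. Of identifiers with 1 leading zero 81.1% matched a mouse gene, and with 2 zeros 84.8%. The 4317 with 3 or more zeros matched 0 times. Gene names, positions and promoter sequences are RefSeq's (GRCm38.p6).

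The deposited hybridization log makes the replicate number a slide. Deviations from group means correlated above 0.1 in 31 of 45 pairs of arrays on 1 slide (median 0.226) and in 17 of 90 pairs on different slides (median −0.0966), and the slide was therefore used as a block in an alternative fit. Position on the slide and group cannot be told apart. The series text calls the CIH mice CCH treated, and the titles were followed. Genes named are every called member, the 5 highest and 5 lowest members of each comparison, members listed by role, members with more than 1 measured probe, and called genes of partner lists; others were chosen after their values were seen. Some genes that meet the rule are not reported here by name. The members and lists were chosen with earlier results of these data known. Lists of cell type markers served to check tissues and to describe other RNA differences between groups. Alternatives covered background, normalization, filter, slide, weights, arrays with low Xist and left-out arrays.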

Additional observations from a re-analysis of the deposited data

How the results depend on the processing

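The count of called members against control was 0 under every alternative in CIH cortex, CCH hippocampus and CIH hippocampus. With only the 13 arrays of low Xist it became 4 in CCH cortex, 1 between CIH and CCH in cortex and 1 for the tissue interaction of CCH, where CCH cortex is array 1 alone. The same fits called 5.06%, 2.52% and 0.839% of all probes. Between the control tissues it was 1, and became 0 without background correction, with median scaling, with the deposited series values, without the detection filter, with probes detected on all 18 arrays, with only the groups compared and with low-Xist arrays, and 2 with array weights (Rpl3 and Rpl27a). Leaving out 1 array gave 0 to 3 there and 0 in every other comparison; the 3, without control hippocampus 1, were Rpl3 (0.22), Rpl27a (0.25) and Rpl17 (−0.40). The cause was not tested. With the replicate block the count was 1 between control tissues and 0 elsewhere, so the block changed no call. Over all probes it gave 173 calls in place of 124 in CCH cortex. Member medians moved by less than 0.081, the spread between replicates, in 181 of 183 alternatives, but 7 of the 9 medians are themselves smaller than that spread. Their sign turned in 14 of the 183, 7 of them between the control tissues, where the median is near 0. The others were 3 in CCH hippocampus, 1 each in CCH and CIH cortex and 2 for the tissue interaction of CCH. The medians that moved further were CCH cortex at 0.17 with low-Xist arrays and the tissue interaction of CCH at 0.05 with array weights, against −0.05. With 3 arrays per group, a change of the size of the median standard error, 0.10, could not be called, and 14 dim member probes gave no value.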
